A study of Homo sapiens with 6 samples.

Results

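The 10 splicing regulators described here are ESRP1, ESRP2, RBFOX1, RBFOX2, MBNL1, MBNL2, PTBP1, PTBP2, QKI and SRRM4, chosen by name from the 27672 genes of the deposited table as RNA-binding proteins known to change exon use when cells change state. All 10 were in the table and passed the filter on low counts, as did 15517 genes in all. RNA-seq of polyadenylated RNA compared undifferentiated H9 human embryonic stem cells (hESC, day 0, 3 libraries) with the neuromesodermal progenitor-like cells made from them (NMP-L, day 3, 3 libraries). Per the labels, hESCs were kept without feeder cells in DEF medium with bFGF (30 ng/ml) and Noggin (10 ng/ml) on fibronectin, and NMP-L cells were made in N2/B27 medium with bFGF (20 ng/ml) and CHIR99021 (3 µM), an inhibitor of GSK3 that activates Wnt signalling. The Methods of the study name another medium and coating for hESCs, so which applied to these libraries is not settled here. They also describe inhibitors of BMP (Noggin) and TGFβ signalling in the medium over a period that includes day 3. Whether the NMP-L cells of these libraries received them is not settled here either. H9 is 1 cell line, and the labels call the libraries of a condition biological replicates, without saying which cultures they came from.

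Libraries held between 19454543 and 23036426 expected counts, and a floor of 3 counts was between 0.13 and 0.154 counts per 1000000 counts of a library (CPM). T, the Brachyury gene that marks NMP cells, had 0, 0 and 2 counts at day 0 and 537, 293 and 629 at day 3. Of 9 NMP markers 8 were tested, 6 higher and 1 lower in NMP-L cells. The lower one was TBX6 (log2 fold change -1.24). NANOG, a pluripotency gene, was 6.03-fold lower in NMP-L cells (93.8 ± 6.37 CPM at day 0 and 15.5 ± 0.283 CPM at day 3, mean ± SD of 3 libraries each), and 6 of 8 pluripotency markers fell. Differences were tested with the quasi-likelihood test of edgeR, with Benjamini-Hochberg adjustment over all genes tested and a threshold of 0.05. By this test 8653 genes (55.8%) passed, with 29.1% of all genes tested higher in NMP-L cells and 26.7% lower. In bulk RNA, fewer cells of a type and less RNA per cell cannot be told apart.

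Splicing regulators bind short sequences in pre-mRNA and promote or block the use of nearby exons, often according to whether they sit upstream or downstream of the exon. ESRP1 and ESRP2 set the exon choices of epithelial cells, such as those of FGFR2 and CD44. RBFOX proteins bind UGCAUG, and QKI, a STAR-family protein known from glia and from mesenchymal cells, binds ACUAA. MBNL proteins promote exon use typical of differentiated cells over that of pluripotent cells. PTBP1 holds neuronal exons out of mRNA in most cell types, PTBP2 is its neural counterpart, and SRRM4 (nSR100) promotes the inclusion of neuronal microexons.

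Of the 10 regulators 5 passed the test, 4 higher and 1 lower in NMP-L cells, against the 55.8% of all genes tested. Scaling to GAPDH counts gave 7 higher and 1 lower, and scaling to HPRT1 counts 1 of each. ESRP2 fell, SRRM4 and MBNL1 rose, and PTBP2 and QKI were called higher by a small margin. Without hESC library 2, hESC library 3 or NMP-L library 3 the number called was 3, PTBP2 and QKI being lost each time. A change of at least 2-fold was called for 1 regulator, SRRM4, against 18.6% of all genes. The CPM of the conditions did not overlap for 3 of the 10 (ESRP2, MBNL1 and SRRM4), against 61.6% of all genes tested. The median log2 fold change was 0.20 over the 10 regulators and 0.03 over all genes tested. The 10 regulators were thus called about as often as other genes, and the gene with the largest change among these families was a paralogue outside the list, MBNL3.

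Promoter sequences are shown for the genes that rose most clearly or whose rise was in doubt, MBNL1, MBNL3, SRRM4 and PTBP2, as the 250 bases before the most upstream RefSeq start of each (GRCh38.p14, 5′ to 3′ on the strand of the gene). Capitals mark CTTTGA or CTTTGT on either strand, the core bound by TCF/LEF factors, the DNA-binding partners of β-catenin in Wnt signalling. The windows are chr3:152268679-152268928 on the plus strand for MBNL1, chrX:132490036-132490285 on the minus strand for MBNL3, chr12:118981291-118981540 on the plus strand for SRRM4 and chr1:96722388-96722637 on the plus strand for PTBP2.
MBNL1: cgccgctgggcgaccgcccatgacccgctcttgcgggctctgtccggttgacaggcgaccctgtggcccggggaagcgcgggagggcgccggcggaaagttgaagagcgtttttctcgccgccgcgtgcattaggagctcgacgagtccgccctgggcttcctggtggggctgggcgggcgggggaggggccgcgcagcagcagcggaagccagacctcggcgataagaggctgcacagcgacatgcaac
MBNL3: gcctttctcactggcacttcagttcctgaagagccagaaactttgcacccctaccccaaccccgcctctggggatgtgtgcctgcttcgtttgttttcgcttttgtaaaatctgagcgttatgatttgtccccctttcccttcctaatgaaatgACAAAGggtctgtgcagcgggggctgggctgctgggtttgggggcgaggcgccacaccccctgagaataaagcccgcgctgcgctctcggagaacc
SRRM4: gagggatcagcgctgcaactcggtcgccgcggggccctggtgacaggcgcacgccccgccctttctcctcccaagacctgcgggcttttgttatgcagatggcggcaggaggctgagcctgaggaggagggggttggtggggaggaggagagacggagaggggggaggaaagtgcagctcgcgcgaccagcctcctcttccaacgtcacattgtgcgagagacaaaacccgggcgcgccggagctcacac
PTBP2: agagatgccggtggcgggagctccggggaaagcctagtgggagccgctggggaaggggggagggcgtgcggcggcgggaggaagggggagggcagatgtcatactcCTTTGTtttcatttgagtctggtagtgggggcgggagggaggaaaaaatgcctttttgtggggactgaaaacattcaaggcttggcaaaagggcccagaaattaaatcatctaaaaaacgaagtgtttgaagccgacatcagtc
The MBNL3 window held 1 such core, 96 bases before the start, the PTBP2 window held 1, 144 bases before the start, and those of MBNL1 and SRRM4 held none. MBNL3 had 4 RefSeq starts, and the core was in 1 of their windows, the one shown. Of the 10 regulators 6 had promoters in the RefSeq table (RBFOX1, MBNL1, MBNL2, PTBP1, PTBP2 and SRRM4), with 14 starts. The core was in 4 of the 14 windows (28.6%), from 3 genes, and in 22.8% of all 35116 windows of this length. CACCTG on either strand, a site of ZEB and SNAI repressors, was in 2 of the 14 windows (14.3%), both of RBFOX1, and in 17.5% of all windows. These matches are letters in a window, and no start or binding was measured.

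The levels of the regulators spanned about 3 orders of magnitude on the length-scaled TPM scale. In hESCs PTBP1 led with 310.7 ± 12 TPM (SD, n = 3), followed by ESRP1 with 151 ± 14.8 TPM, RBFOX2 with 53.1 ± 6.23 TPM, ESRP2 with 30.6 ± 1.99 TPM, QKI with 29.6 ± 5.76 TPM and PTBP2 with 22.2 ± 3.87 TPM. ESRP2 and QKI, and QKI and PTBP2, overlapped between libraries and had no order. MBNL1 followed at 2.55 ± 0.244 TPM, and RBFOX1, MBNL2 and SRRM4 all lay at 1.05 TPM or less in every hESC library. In NMP-L cells PTBP1 (313 ± 17 TPM) and ESRP1 (155 ± 13 TPM) led again, RBFOX2 (59.5 ± 1.96 TPM) came next, and QKI (39.9 ± 5.84 TPM) and PTBP2 (30.0 ± 5.13 TPM) overlapped. ESRP2 (18.3 ± 0.854 TPM) now stood below PTBP2 with no overlap, MBNL1 was at 4.03 ± 0.679 TPM, and RBFOX1, SRRM4 and MBNL2 had no order among them.

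**Figure D1:**
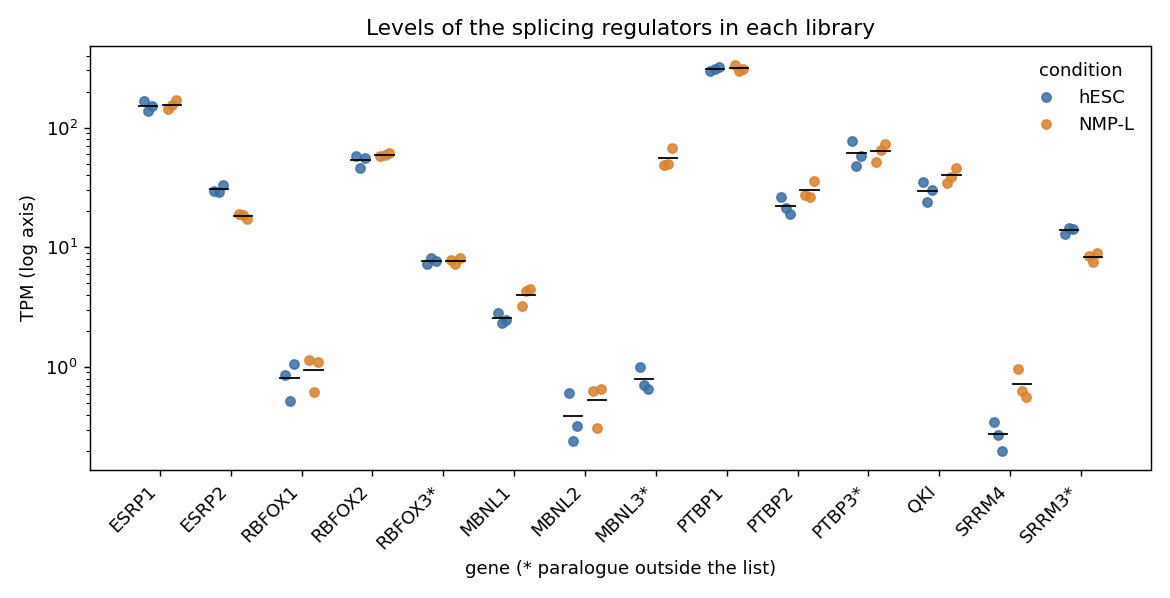
TPM (log axis) of the 10 splicing regulators and 4 paralogues (asterisks) in each of the 3 hESC (blue) and 3 NMP-L (orange) libraries, with a bar at the mean of each condition. ESRP2 sits lower and MBNL1, MBNL3 and SRRM4 higher in all NMP-L libraries, while PTBP1 and ESRP1 lie at the same height in both.

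ESRP1 and ESRP2 are close relatives with shared targets, and ESRP2 alone of the pair passed the test. ESRP2 (chromosome 16, 68262936 to 68272005, minus strand, GRCh37) had 57.7, 58.9 and 64.6 CPM at day 0 and 35.8, 35 and 30.8 CPM at day 3. All NMP-L libraries lay below all hESC libraries. ESRP2 was 1.78-fold lower in NMP-L cells (log2 fold change -0.83, SE 0.10, adjusted p = 2.1e-05 by edgeR), and it was called lower under each of the 20 other settings tried. ESRP1 had 299.7, 256 and 276 CPM at day 0 and 249, 269 and 274 CPM at day 3, and the conditions overlapped. Its log2 fold change was -0.07 (95% interval -0.25 to 0.11, adjusted p = 0.49 by edgeR). With a correction of each library for the GC content and length of transcripts, chosen after seeing the data, ESRP1 was called lower (log2 fold change -0.20, adjusted p = 0.0031), and relative to GAPDH counts it was called higher (0.49, adjusted p = 0.008), so no direction is given for it. GAPDH itself was called lower (log2 fold change -0.55, adjusted p = 0.00014 by edgeR), and HPRT1, the other gene used for scaling, had a value of 0.28 (adjusted p = 0.069).

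ESRP1 made up most of the ESRP transcripts. Its share of the ESRP total in TPM was 84.8%, 82.4% and 82.1% at day 0 and 88.2%, 89.3% and 90.7% at day 3. The ratio of ESRP1 to ESRP2 was 4.93 in hESCs and 8.46 in NMP-L cells as geometric means, higher in all NMP-L libraries (log2 difference 0.78, exact permutation p = 0.1, two-sided, the smallest that 3 against 3 libraries allow). The ESRP total was 182 ± 15.2 TPM in hESCs and 174 ± 12.1 TPM in NMP-L cells (SD, n = 3 each), which overlapped (exact permutation p = 0.5). Of the exons of ESRP2, 227 bases lie opposite exons of NFATC3, whose counts were 945 to 976 in hESCs and 1053 to 1161 in NMP-L cells. Whether the counting used strand is not given in the sources used here, and the ESRP2 counts were whole numbers in every library, so RSEM divided no reads of it with another gene.

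ZEB1 and ZEB2 are repressors of epithelial genes, ESRP1 among them, in epithelial-mesenchymal transition. ZEB2 had 2, 3 and 3 counts in hESCs and 389, 248 and 464 in NMP-L cells (adjusted p = 1.6e-08 by edgeR). ZEB1 had 2, 4 and 1 counts in hESCs and 24, 24 and 37 in NMP-L cells (adjusted p = 6.7e-05 by edgeR). Both thus rose in libraries in which ESRP1 stayed among the most abundant regulators. Of the 11 genes listed as transcriptional regulators of these families, 5 were higher, 2 lower and 4 not past the threshold, with a median log2 fold change of 0.23. Of these, TWIST1 had 3 counts in each hESC library and 24, 37 and 22 in NMP-L cells, and SNAI2 had 4, 1 and 2 against 14, 16 and 13. GRHL3 was also higher (log2 fold change 0.86), and the 2 lower ones were OVOL1 (-0.88) and GRHL1 (-0.60).

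ESRP expression is a hallmark of epithelial cells, so their markers are given beside it. Of 12 epithelial markers 9 were higher and 3 lower in NMP-L cells, with summed levels of 2527 to 2603 TPM in hESCs and 3413 to 3440 TPM in NMP-L cells (10 higher and 0 lower relative to GAPDH counts, 3 and 3 relative to HPRT1 counts). CDH1 (E-cadherin) rose slightly (log2 fold change 0.27, SE 0.07, adjusted p = 0.0071), although relative to HPRT1 counts its value was -0.024. CLDN4 (log2 fold change 2.05) and RAB25 (1.15) rose more. Of 14 mesenchymal markers 12 were tested, 5 higher and 5 lower, with CDH2 (N-cadherin, log2 fold change 2.20) higher and COL1A1 (-3.61) lower, and their summed levels were 602 to 648 TPM in hESCs and 238 to 245 TPM in NMP-L cells. Most of the fall of this sum was that of COL1A1, from 338 ± 23.8 TPM to 29.7 ± 0.75 TPM (SD, n = 3 each). PRRX1 was at or under 3 counts in every library.

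The MBNL family showed the largest change in total level of the families measured. MBNL1 (chromosome 3, 151961617 to 152183569, plus strand, GRCh37) had 7.64, 6.38 and 6.68 CPM at day 0 and 8.44, 11.2 and 10.9 CPM at day 3. All NMP-L libraries lay above all hESC libraries, NMP-L library 1 by the least. MBNL1 rose 1.47-fold (log2 fold change 0.56, SE 0.14, adjusted p = 0.0063 by edgeR), and of 20 other settings only scaling to HPRT1 counts ended the call (log2 fold change 0.26, adjusted p = 0.37). Of the exons of MBNL1, 1175 bases lie opposite exons of MBNL1-AS1, which had 1, 1 and 3 counts in hESCs and 7, 5 and 7 in NMP-L cells, far fewer than the 124 to 260 counts of MBNL1. MBNL2 (chromosome 13, 97873688 to 98046374, plus strand, GRCh37) had 26, 11 and 14 counts in hESCs and 31, 14 and 32 in NMP-L cells, and the conditions overlapped. Its log2 fold change was 0.35 with an interval of -0.49 to 1.20 (adjusted p = 0.46 by edgeR), an interval that holds both no change and a 2-fold rise.

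MBNL3 (chromosome X, 131503348 to 131623996, minus strand, GRCh37), a paralogue known for opposing muscle differentiation, had 106, 81 and 71 counts in hESCs and 5913, 5719 and 8356 in NMP-L cells. Every NMP-L library held over 50 times the counts of any hESC library. MBNL3 rose 65.6-fold (95% interval 50.8 to 84.6, adjusted p = 8.4e-10 by edgeR) and ranked 26 by log2 fold change among all genes tested. In TPM it went from 0.787 ± 0.187 to 55.5 ± 10.8 (SD, n = 3 each), from a level near that of RBFOX1 to one overlapping that of RBFOX2.

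MBNL3 thereby replaced MBNL1 as the main MBNL transcript. MBNL1 made up 63.7%, 71.2% and 71.8% of the MBNL total at day 0 and 6.19%, 7.98% and 6.15% in the NMP-L libraries, although its own level rose. MBNL3 made up 22.6%, 21.5% and 18.9% in hESCs and 92.6%, 91.5% and 92.9% in NMP-L cells. The family total was 3.72 ± 0.616 TPM in hESCs and 60 ± 11.3 TPM in NMP-L cells, 16.1-fold higher as a ratio of means (exact permutation p = 0.1, the smallest possible here). The ratio of MBNL1 to MBNL2, by contrast, overlapped between the conditions (log2 difference 0.18, exact permutation p = 0.9), with MBNL2 at 0.66 TPM or less in every library.

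**Figure D2:**
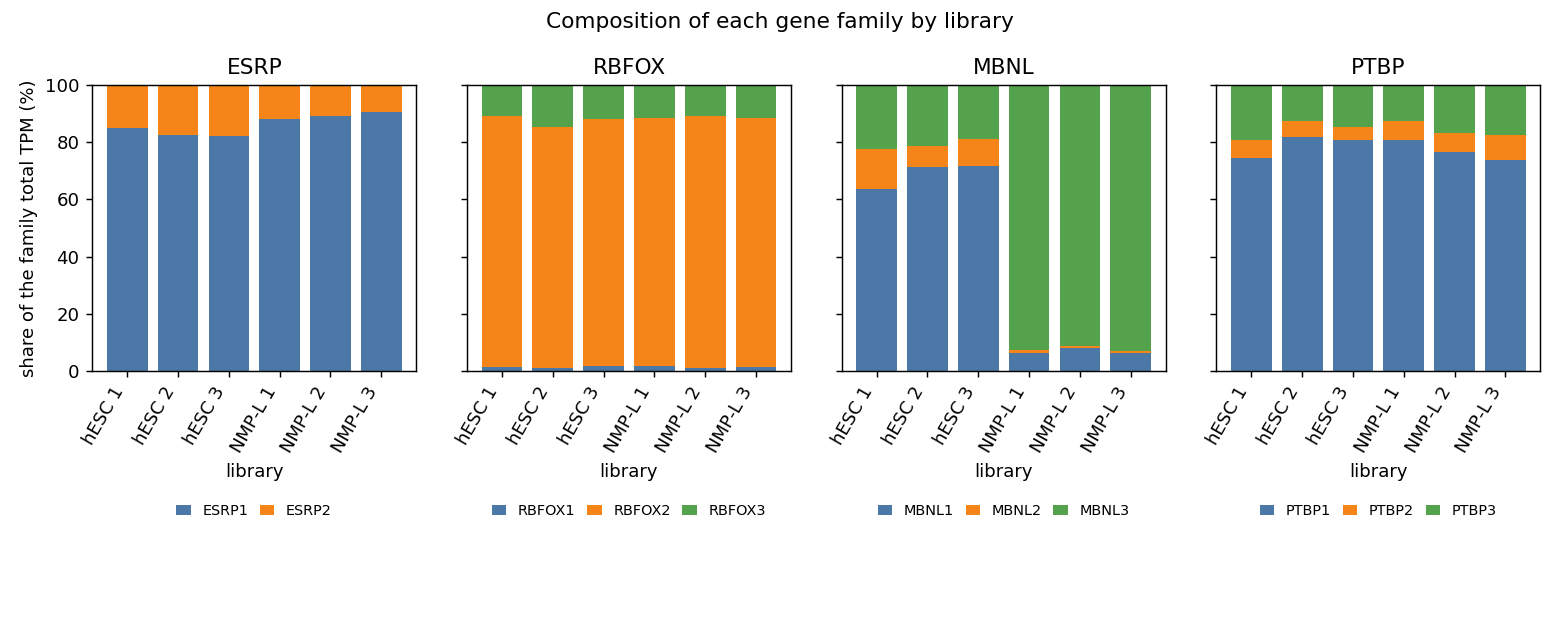
Share of each gene in the total TPM of its family (%, 4 panels) in each of the 6 libraries. MBNL3 (green) takes 91.5% to 92.9% of the MBNL total in the NMP-L libraries against 18.9% to 22.6% in the hESC libraries, ESRP2 (orange) shrinks in the ESRP panel, and the RBFOX and PTBP panels keep RBFOX2 and PTBP1 as the main genes.

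No single RBFOX gene passed the test. Their total was 61.5 ± 6.05 TPM in hESCs and 68.1 ± 2.48 TPM in NMP-L cells (SD, n = 3 each), higher in all NMP-L libraries by a ratio of means of 1.11 (exact permutation p = 0.1, the smallest possible here). The gap was narrow, with hESC library 1 at 65.7 TPM and NMP-L library 2 at 66.3 TPM. On the scale of log2(TPM + 0.1) the median gene tested also rose, by 0.12, so no rise particular to the family is read from this. RBFOX2 (chromosome 22, 36134783 to 36424872, minus strand, GRCh37) had 194, 161 and 189.9 CPM at day 0 and 190.1, 192 and 189 CPM at day 3. The hESC libraries lay on both sides of the NMP-L libraries, with hESC library 2 the lowest. Its log2 fold change was 0.07 (95% interval -0.12 to 0.25, adjusted p = 0.52 by edgeR), an interval that holds no 2-fold change, although relative to GAPDH counts the value was 0.63 and called. RBFOX1 (chromosome 16, 5289803 to 7763342, plus strand, GRCh37) had 33, 21 and 32 counts in hESCs and 35, 28 and 41 in NMP-L cells, with a log2 fold change of 0.039 and a wide interval of -0.53 to 0.61, and its sign turned under 5 other settings. RBFOX3, the neuronal NeuN protein, had 178 to 218 counts in hESCs and 194 to 234 in NMP-L cells, and its log2 fold change was -0.09 (adjusted p = 0.54). RBFOX2 made up 84.3% to 88.2% of the RBFOX total in every library, and the ratio of RBFOX2 to RBFOX1 overlapped between the conditions (exact permutation p = 0.9).

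PTBP1 was the most abundant of the regulators in every library. PTBP1 (chromosome 19, 797075 to 812327, plus strand, GRCh37) had 467, 504 and 511 CPM at day 0 and 502, 453 and 440.3 CPM at day 3, and the conditions overlapped. Its log2 fold change was -0.09 (95% interval -0.25 to 0.08, adjusted p = 0.36 by edgeR). The direction turned with the correction for GC and length (0.14, adjusted p = 0.017) and relative to GAPDH counts (0.47, adjusted p = 0.00073), so no direction is given. PTBP2 (chromosome 1, 97187221 to 97289294, plus strand, GRCh37) had 44.1, 36.7 and 32 CPM at day 0 and 44.7, 43.3 and 54.3 CPM at day 3. NMP-L library 2 lay below hESC library 1, and NMP-L library 3 was the highest. PTBP2 was called 1.26-fold higher (log2 fold change 0.34, SE 0.13, adjusted p = 0.045 by edgeR), but this call was lost under 9 of 20 other settings.

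The settings that ended the PTBP2 call included RLE size factors (adjusted p = 0.055), upper-quartile scaling (0.053) and leaving out hESC library 2 (0.115), hESC library 3 (0.23) or NMP-L library 3 (0.18). With the correction for GC and length its log2 fold change was 0.11 (adjusted p = 0.33). PTBP2 has the lowest GC content of the regulators (34.7%) and PTBP1 the highest (61.7%), each in its longest annotated transcript. PTBP1 made up 73.8% to 81.9% of the PTBP total over all libraries. PTBP2 made up 6.58%, 5.57% and 4.73% at day 0 and 6.70%, 6.79% and 8.57% at day 3, higher without overlap (exact permutation p = 0.1, the smallest possible here), whereas the PTBP1 shares overlapped. The ratio of PTBP1 to PTBP2 was 14.1 in hESCs and 10.5 in NMP-L cells with overlap (exact permutation p = 0.2). PTBP3, the paralogue known from blood cells, had a log2 fold change of -0.03 (95% interval -0.38 to 0.32, adjusted p = 0.87 by edgeR), and its sign turned under 5 other settings. With the correction for GC and length PTBP3 was called lower (-0.23, adjusted p = 0.011, and 0.033 with the replicate block added). REST, a repressor of neuronal genes whose own mRNA is an SRRM4 target, had a log2 fold change of 0.22 (adjusted p = 0.22 by edgeR), and without hESC library 1 it was called higher (0.39, adjusted p = 0.0096).

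QKI (chromosome 6, 163835032 to 163999624, plus strand, GRCh37) had 171, 120.2 and 146 CPM at day 0 and 162, 181 and 205 CPM at day 3. NMP-L library 1 lay below hESC library 1, and NMP-L library 3 was the highest. QKI was called 1.25-fold higher (log2 fold change 0.32, SE 0.13, adjusted p = 0.045 by edgeR), and the call was lost under 7 of 20 other settings. These included RLE size factors (adjusted p = 0.052) and leaving out hESC library 2 (0.18), hESC library 3 (0.125), NMP-L library 2 (0.095) or NMP-L library 3 (0.17). With the correction for GC and length QKI kept its call at a smaller size (log2 fold change 0.15, adjusted p = 0.022). Among the hESC libraries, library 1 was the highest in 8 of the 10 regulators and lowest in the other two, ESRP2 and PTBP1, which have the highest GC content (57.7% and 61.7%). The part of GC content in the differences between conditions was not tested beyond this correction.

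SRRM4 (chromosome 12, 119419346 to 119600856, plus strand, GRCh37) had 27, 23 and 16 counts in hESCs and 86, 53 and 51 in NMP-L cells, or 1.44, 1.18 and 0.836 CPM and 3.86, 2.53 and 2.13 CPM. All NMP-L libraries lay above all hESC libraries, and NMP-L library 1 was the highest. SRRM4 rose 2.45-fold (95% interval 1.57 to 3.83, adjusted p = 0.0028 by edgeR), and the call held under each of the 20 other settings. At 0.717 ± 0.214 TPM in NMP-L cells (SD, n = 3) it overlapped RBFOX1 and MBNL2, the other regulators of lowest level. Its paralogue SRRM3, also an activator of microexons, had 22.8, 26.8 and 25.2 CPM at day 0 and 14.5, 12.8 and 14.4 CPM at day 3. SRRM3 moved the opposite way, 1.79-fold lower without overlap (log2 fold change -0.84, SE 0.11, adjusted p = 6.2e-05 by edgeR), though relative to GAPDH counts it was not past the threshold (-0.28, adjusted p = 0.08), and it stayed the more abundant of the pair at 8.3 ± 0.712 TPM against 0.717 ± 0.214 TPM for SRRM4.

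SRRM4 is known from neurons and MBNL proteins from muscle, so markers of both are given here. Of 15 neuron markers 12 were tested, 1 higher and 6 lower, and their summed levels were 412 to 438 TPM in hESCs and 254 to 265 TPM in NMP-L cells. STMN2 (log2 fold change -2.68) and GAP43 (-1.05) were lower, MYT1L had 0 counts in every library and NEUROD1 had at most 3. The marker called higher was MAP2 (log2 fold change 0.97), and DCX (-0.22) and INA (-0.20) were not past the threshold. Of 13 muscle markers 8 were tested, 1 higher and 5 lower, with summed levels of 265 to 294 TPM in hESCs and 23.8 to 26.9 TPM in NMP-L cells. Most of this sum was ACTA1, with 258 ± 16.2 TPM in hESCs and 16.4 ± 2.29 TPM in NMP-L cells (SD, n = 3 each). The ACTA1 counts were not whole numbers, so RSEM divided some of its reads with other genes. ACTA1 (log2 fold change -4.07), TNNT2 (-3.55) and DES (-2.15) were lower, MYF6 had 4, 3 and 0 counts in hESCs and 28, 28 and 32 in NMP-L cells, MYOG had 0 counts in every library and MYOD1 had at most 3. The part of such cells in the levels of the regulators was not tested.

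**Figure D3:**
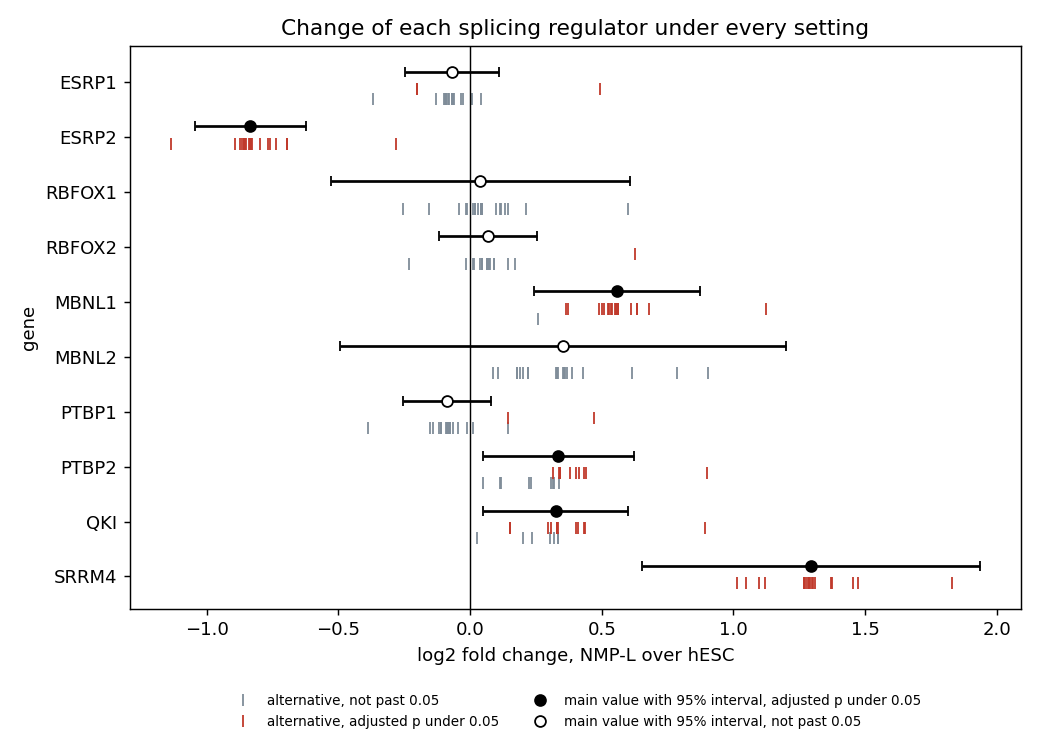
Log2 fold change (NMP-L over hESC) of each splicing regulator, as the main value with its 95% interval (circles, filled where the adjusted p was under 0.05) and under each of 20 other settings (ticks, red where called, grey where not). ESRP2 and SRRM4 are called in every setting and MBNL1 in 19 of 20, whereas PTBP2 is called in 11 and QKI in 13.

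The other splicing genes of the table are given by their counts. Of 31 other tissue-regulated splicing factors 29 were tested, 9 higher, 7 lower and 13 not past the threshold, with a median log2 fold change of -0.01 and 7 changes of at least 2-fold. The cardiac and muscle regulators RBM20 (log2 fold change 2.10, SE 0.30) and RBM24 (1.58, SE 0.28) rose, from 6 to 14 and 9 to 12 counts in hESCs to 55 to 61 and 33 to 40 counts in NMP-L cells. The neuronal regulators ELAVL3 (log2 fold change -1.85, SE 0.16) and NOVA2 (-1.38, SE 0.09) fell, as did ELAVL2 (-0.70, SE 0.18). CELF4 (log2 fold change -1.15, SE 0.26, adjusted p = 0.0028 by edgeR) and CELF5 (-0.47, SE 0.14, adjusted p = 0.015) were also lower. Not every neural member of the list fell. MSI1 rose from 14.6 to 18.0 TPM in hESCs to 38.8 to 46.8 TPM in NMP-L cells (adjusted p = 2.6e-06 by edgeR), NOVA1 rose (log2 fold change 0.84, SE 0.14), and ELAVL4 had a value of 0.063 (adjusted p = 0.90 by edgeR). Of 16 SR proteins, which promote exon use widely, 4 were higher and 6 lower, and of 23 hnRNP proteins, which often oppose them, 5 were higher and 10 lower. Of 40 core spliceosome genes 4 were higher, 14 lower and 22 not past the threshold, and 11 in place of 18 were called without hESC library 3. The split of these calls changed with the scaling. Relative to GAPDH counts all calls were higher (10 SR, 18 hnRNP and 30 core spliceosome genes), and relative to HPRT1 counts all were lower (8, 10 and 17). By library size only the core spliceosome genes split into 7 higher and 7 lower. With TMM scaling no change in the 3 lists reached 2-fold, the largest being 0.61 on the log2 scale, and their median log2 fold changes were -0.13 (SR proteins), -0.07 (hnRNP proteins) and -0.08 (core spliceosome).

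**Figure D4:**
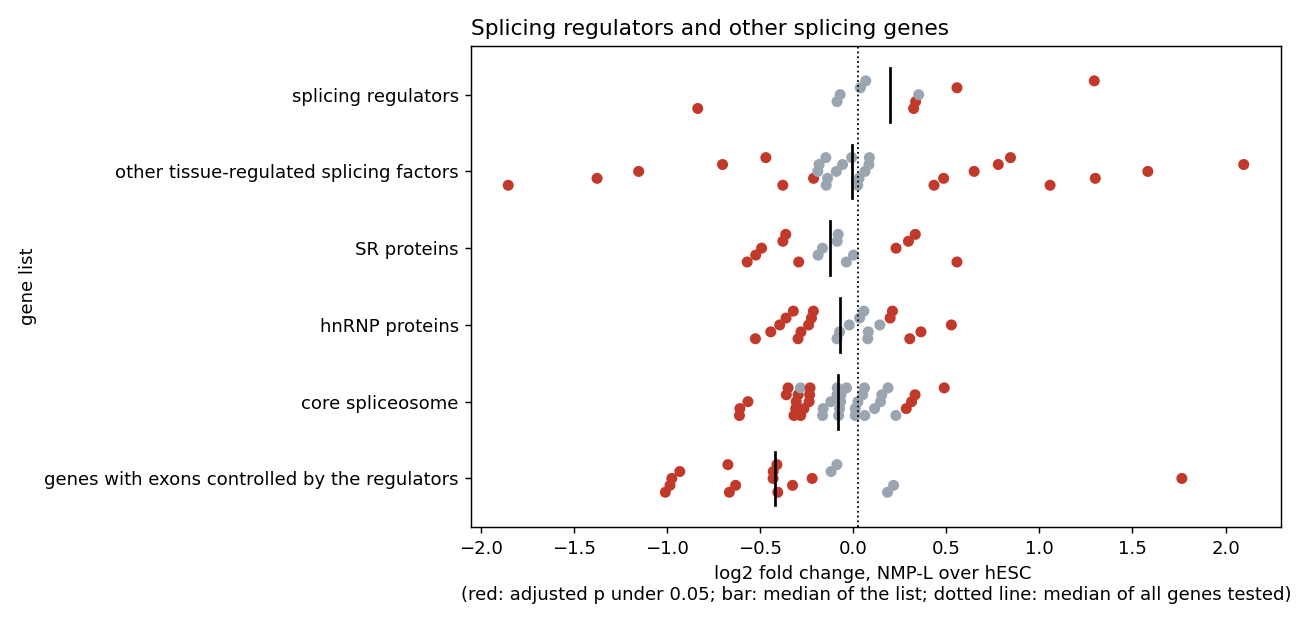
Log2 fold change (NMP-L over hESC) of each tested gene in 6 lists (rows), red where the adjusted p was under 0.05, with a bar at the list median and a dotted line at the median of all genes tested (0.03). The SR, hnRNP and core spliceosome genes stay within 0.61 of zero, whereas the splicing regulators run from -0.83 (ESRP2) upwards to SRRM4 and the other tissue-regulated factors from -1.85 to 2.10.

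Of 18 genes with exons known to be controlled by these regulators, 1 was higher, 13 lower and 4 not past the threshold, with a median log2 fold change of -0.42. CD44, whose variable exons are ESRP targets, rose (log2 fold change 1.77, SE 0.12, adjusted p = 4.1e-07 by edgeR), and GABBR1, a PTBP target, fell (-1.01, SE 0.14, adjusted p = 8.5e-05). Relative to GAPDH counts 7 of the 18 were called higher and 4 lower. FGFR2, whose epithelial exon ESRP proteins include, was called 1.16-fold lower (log2 fold change -0.22, adjusted p = 0.027), a call lost under 6 other settings and turned relative to GAPDH counts (0.34). These are gene levels and hold no exon inclusion.

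The deposited values do carry 1 trace of isoform use, since the expected count of a gene divided by its TPM follows the mean length of its transcripts as RSEM weighted them. This ratio, divided by the median gene of each library, was read for the 11883 genes with at least 50 counts and 1 TPM in every library. The central 90% of these genes changed by between -1.78% and 1.72% from hESCs to NMP-L cells. The 7 regulators that met the limits (ESRP1, ESRP2, RBFOX2, MBNL1, PTBP1, PTBP2 and QKI) changed by between -0.60% and 0.25%. PTBP1 was at 1.03 times the median gene in all 6 libraries, and QKI, with its long transcripts, between 3.17 and 3.21 times. RBFOX1, below the limits, varied from 0.937 to 1.46 between libraries of both conditions. The 7 regulators thus stayed inside the central range of all genes measured, and the measure does not resolve single exons.

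Of the 18 genes with controlled exons 3 lay outside that central range, by the same measure. TPM1, a PTBP and MBNL target, had relative lengths of 0.508, 0.507 and 0.503 in hESCs and lower values in all NMP-L libraries (change of the mean -2.28%, exact permutation p = 0.1, the smallest possible here). The means of CD44 differed by 5.32% and those of FOXP1 by 9.12%, but for both the conditions overlapped (exact permutation p = 0.3 and p = 0.2). FGFR2 changed by 1.66%, inside the central range. Its NMP-L libraries stood above the hESC libraries only barely, with hESC library 3 at 1.34015 and NMP-L library 1 at 1.34035. Over all 18 genes the conditions did not overlap in 11, against 47.1% of the 11883 genes measured.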

How the data were processed

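RNA-seq of polyadenylated RNA (single-end, 76 bp) was analysed in 3 hESC and 3 NMP-L libraries. The values deposited by the authors were expected counts from RSEM, not normalised between libraries, and TPM, which RSEM scales by transcript length to a fixed total. The submitters' processing notes name cutadapt 1.9.1, STAR 2.5.2a, RSEM 1.3.0, DESeq2 1.12.3 and hg19. 0 per-sample columns were left unused. The members and lists were chosen with earlier results of these data known.

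Counts, rounded to whole numbers, were filtered with filterByExpr (minimum count 10). After TMM scaling, the quasi-likelihood F test of edgeR 4.0.16 (R 4.3.3) was run, with Benjamini-Hochberg adjustment and a threshold of 0.05. The standard error is the log2 fold change over the square root of F. CPM used TMM library sizes. Ratios of paralogues used TPM with a pseudocount of 0.01 and exact two-sided permutation tests over libraries, whose p cannot go under 0.1. P-values weigh a difference against the spread between these libraries, and intervals cover that spread only. In edgeR the spread of each gene was moderated with that of all genes tested. A fold against a condition at or under 3 counts was not given.

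Named genes were the 10 members, 4 paralogues, 8 fixed genes (REST, FGFR2, ZEB1, ZEB2, CDH1, CDH2, T and NANOG), GAPDH and HPRT1 as scaling genes, and, from each other list, at most the 4 largest changes past the threshold and 2-fold. Other names (NFATC3, MBNL1-AS1, TPM1, FOXP1, MSI1, NOVA1, ELAVL2, ELAVL4, CELF4, CELF5, TBX6, MAP2, DCX, INA, GRHL1, GRHL3, OVOL1 and genes at or under 3 counts) were picked once their values were known. So were the promoter motifs and the measure of transcript length. On simulated data of 15444 genes, 200 of them changed, 93 of 100 changes of 2-fold and 98 of 100 of 4-fold were recovered, with 16 false calls. Far fewer genes changed there than were called in the data. Changes under 2-fold, such as those of PTBP2 and QKI, were not simulated. DESeq2 1.42.0 and limma 3.58.1 served as alternatives. Gene positions are from GENCODE on GRCh37 and promoters from RefSeq. Tables were joined in Python 3.11.15 and plots drawn with matplotlib 3.10.9.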

Additional observations from a re-analysis of the deposited data

How the results depend on the processing

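Over the 10 regulators and 20 other settings, 166 values kept direction and side of the threshold, 17 lost the call, 3 gained one in the same direction and 14 changed sign, of which 3 also passed the threshold (ESRP1 and PTBP1 relative to GAPDH counts, and PTBP1 with the correction for GC and length). The cause was not tested for any of these. The number of regulators called, 5 in the main test, was 3 with RLE size factors, 3 with the replicate block, 2 relative to HPRT1 counts (1 higher, 1 lower), 8 relative to GAPDH counts (7 higher, 1 lower) and between 3 and 5 with 1 library left out, 3 without hESC library 2, hESC library 3 or NMP-L library 3. GAPDH scaling put the median log2 fold change of all genes at 0.59 and HPRT1 scaling at -0.27, against 0.03 with TMM. All calls then split into 10027 higher and 1428 lower (GAPDH) or 1793 higher and 5294 lower (HPRT1), against 4512 and 4141. Of the 40 core spliceosome genes 30 were called relative to GAPDH counts (all higher), 10 with the replicate block, and between 11 (without hESC library 3) and 20 with 1 library left out, against 18. The counts of SR proteins, hnRNP proteins and other tissue-regulated factors stayed within 1.5 times under each setting, although their direction did not (SR proteins 4 higher and 6 lower with TMM, 10 and 0 with GAPDH, 0 and 8 with HPRT1, hnRNP proteins 5 and 10, 18 and 0, 0 and 10, other factors 9 and 7, 21 and 2, 6 and 10). The 4 ratios of paralogues moved by less than the SD between libraries with expected counts, a pseudocount of 0.1 TPM or 1 library left out. The ratios were not computed with the correction for GC and length. With it the log2 fold changes were 0.14 for PTBP1 and 0.11 for PTBP2, against -0.09 and 0.34 in the main test. Those of ESRP1 and ESRP2 were -0.20 and -0.70, against -0.07 and -0.83.

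Signs turned as follows, as log2 fold changes. Relative to GAPDH counts ESRP1 was 0.49, PTBP1 0.47, RBFOX3 0.47, PTBP3 0.53 and FGFR2 0.34, and relative to HPRT1 counts RBFOX1 was -0.26, RBFOX2 -0.23, REST -0.068 and CDH1 -0.024. With library size only ESRP1 was 0.0057 and PTBP3 0.044. In limma on log2(TPM + 0.1) ESRP1 was 0.040, PTBP1 0.012, RBFOX3 0.018 and PTBP3 0.068. With the correction for GC and length, chosen after the data were seen, RBFOX1 was -0.016, PTBP1 0.14 and RBFOX3 0.078, and with the replicate block added they were -0.011, 0.14 and 0.077. With 1 library left out RBFOX1 ran from -0.15 (without hESC library 2) to 0.14, RBFOX2 from -0.016 (without hESC library 2) to 0.092 and PTBP3 from -0.18 to 0.15 (without hESC library 1).

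Replicate numbers are shared between the conditions, but no source used here states a pairing. The deviations of same-numbered libraries correlated at -0.37, -0.06 and -0.13. These values cannot show whether same-numbered cultures were made together. The replicate block called 7560 genes, and PTBP2 (adjusted p = 0.0807 by edgeR) and QKI (0.0541) lost their calls. Counts were lowest for RBFOX1, MBNL2 and SRRM4, between 11 and 86 in a library.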
